A study of Enchytraeus albidus with 42 samples.

Results

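The pesticide library transcripts of the Enchytraeus albidus microarray are the sequences whose deposited name begins with Ealb_Pest_, and they made up 198 of the 1035 transcripts on the array. The remaining 837 transcripts comprised 345 of a metal library, 171 assembled contigs and 321 clones with neither mark. Membership came from the sequence name alone, and no measured value was used to choose members. Each member had 15 spots of 1 probe, and members filled 2970 of 15208 spots. The deposited names hold a plate, a well and a sequencing primer, and members are called by these here (P6_F12_SP6 is plate 6, well F12, primer SP6). Reads from the SP6 primer gave 174 members and reads from the T7 primer 24, over 10 plates that contributed between 13 and 25 members each.

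E. albidus is a small oligochaete worm of soil and litter, used as a test organism in soil ecotoxicology. Adult worms with a clitellum were exposed in LUFA 2.2 natural soil for 2 days, the worms of 1 vessel were pooled, and RNA of each vessel was hybridised to 1 single-colour array. There were 14 groups of 3 vessels, of which 2 were controls, with water or with the solvent acetone, and 12 were exposed to dimethoate, atrazine or carbendazim at 1 of 4 concentrations set at the effect concentrations EC10, EC20, EC50 and EC90 for reproduction. Dimethoate was dosed at 0.1, 0.5, 2 and 25 mg per kg of soil, atrazine at 0.2, 0.5, 3 and 50 mg per kg, and carbendazim at 0.05, 0.1, 0.5 and 3 mg per kg. Dimethoate was compared with the water control, and atrazine and carbendazim with the solvent control. Since whole worms were pooled, a lower signal from fewer cells of a type and one from less RNA per cell cannot be told apart.

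Dimethoate is an organophosphorus insecticide that acts on cholinesterase, atrazine a herbicide that blocks photosystem II in plants, and carbendazim a fungicide that disturbs the assembly of microtubules. The pesticide library is a cDNA library enriched with genes responsive to pesticides, made to extend an earlier microarray of this species. The library as a whole was thus enriched for a response before the arrays used here. Clones of such a library are single sequencing reads from the SP6 or T7 end of an insert, and several clones can carry pieces of the same transcript.

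Signals are log2 intensities after a median shift of each array. Each change is a log2 difference of group means from 1 limma model of all 42 arrays, and a transcript was called where the adjusted p, over all 1035 transcripts, was under 0.05. Before the shift the median signal of an array lay between 6.46 and 8.56, and between 74.7% and 94.5% of all transcripts were well above background. As a check of the tissue, 36 transcripts named actin, myosin, tropomyosin or troponin were examined, and 33 were well above background on every array. Of 2 transcripts named extracellular hemoglobin 1 was. These sets cannot show by themselves that whole worms were used. A pair of arrays read in the same scan, dimethoate EC10 replicate 1 and EC20 replicate 2, stood furthest from their group means over the members, with SDs of 0.82 and 0.80 log2. They are called the deviating scan. Slides held only some groups, and results on which slide, scan or single arrays bear are given with and without them.

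Members had lower signals than the rest of the array. Their mean signals over 42 arrays ran from 1.46 to 16.07 with a median of 5.72, and the quartiles were 4.94 and 10.07. The other transcripts had a median of 8.44 with quartiles of 5.62 and 11.65, a difference in medians of -2.71 that was between -3.38 and -1.84 on the single arrays. A set of 48 members with nearly equal low signals, described below, weighs on this difference. The 150 members outside that set had a median of 7.35. The median was 8.23 for the metal library, 8.07 for the contigs and 8.66 for the other clones. The brightness of a probe depends on its sequence as well as on the amount of RNA, so these are distributions of signal and not amounts of transcript.

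The same difference appeared in the calls of the scanner software. Of the members 101 (51.0%) were well above background on all 42 arrays, against 614 (73.4%) of the other transcripts. On no array were 13 (6.57%) of the members and 36 (4.30%) of the others well above background, and on some arrays only, 84 (42.4%) and 187 (22.3%). At the upper end 12 members (6.06%) and 55 others (6.57%) were saturated on at least 1 array. The 5 brightest members were P10_E3_SP6 (mean signal 16.07, saturated on 40 arrays), P3_E11_T7 (16.05, on 40), P10_H2_SP6 (16.04, on 36), P3_H9_SP6 (16.02, on 38) and P6_B4_SP6 (15.93, on 16). The last of these is named scbp2 protein, after the sarcoplasmic calcium-binding proteins of invertebrate muscle, and changes of such saturated probes are bounded by the scanner's range.

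Primer and signal went together in this library. The 174 SP6 members had a median signal of 5.18, and the 24 T7 members one of 12.36. In the metal library the medians were 7.41 for SP6 and 11.66 for T7 reads, and among the other clones 8.79 and 8.55. The spread of a member over the 42 arrays was close to that of the others, with a median SD of 0.43 against 0.45.

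**Figure D1:**
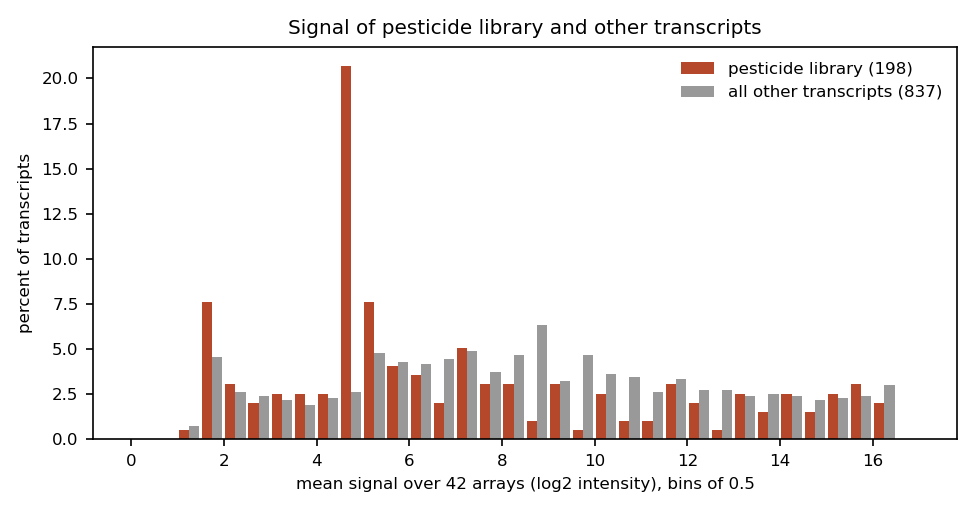
Share of transcripts (vertical axis, percent) in bins of mean signal over 42 arrays (horizontal axis, log2 intensity), for the 198 pesticide library transcripts and the 837 others. The bin from 4.5 to 5.0 holds 20.7% of the members and 2.63% of the others, and the rest of the members are spread over the whole range.

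The narrow peak at low signal was a block of members with nearly the same value on every array. Between 4.5 and 5.5 lay 56 members (28.3%) and 62 other transcripts (7.41%). Over the 42 arrays these members had a median pairwise correlation of 0.97, and the others in the same band 0.107. When members were joined by average linkage of their correlations over the 42 arrays, with a limit of 0.9, 48 members (24.2%) fell into 1 set. Arrays share one scaling and background here, and correlations over arrays are given as a description.

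The 48 members of that set were all SP6 reads and came from all 10 plates. Plate 8 contributed 10 of its 18 members (55.6%), plate 9 contributed 10 of 24 (41.7%), and plate 2 contributed 1 of 13. In the same analysis 9 other transcripts, all of them contigs, joined the set. With these contigs included, the median correlation in the set was 0.972 and the lowest 0.770. The median was 0.0088 among the 150 members outside the set. Among all other transcripts the median correlation was -0.010. Mean signals of the 48 members ran from 4.72 to 6.03 with quartiles of 4.95 and 4.99. On single arrays the distance between the quartiles of the 48 values was 0.0368 to 0.264. Only 1 member of the set carries a protein name, P3_E4_SP6, matched to mads flc-like protein 2.

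The level of the set moved over the arrays as one value, from 4.06 to 5.69. Group means ± SD of its median were 4.68 ± 0.38 in the water control and 5.03 ± 0.38 in the solvent control (3 arrays each). With dimethoate they were 4.72 ± 0.58, 4.88 ± 0.63, 4.75 ± 0.25 and 4.54 ± 0.37 from EC10 to EC90. With atrazine the means were 5.33 ± 0.31, 5.21 ± 0.32, 4.99 ± 0.07 and 5.31 ± 0.36, and with carbendazim 5.14 ± 0.07, 5.01 ± 0.53, 5.07 ± 0.16 and 4.95 ± 0.14. These groups overlapped, and none of the 48 members was called, or had an unadjusted p under 0.05 with limma, in any of the 15 comparisons.

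Detection of this set differed between arrays. On 38 arrays all 48 members were well above background, and on the other 4 arrays only 5 to 7 of them. The 4 arrays were dimethoate EC10 replicate 1, dimethoate EC20 replicate 2, atrazine EC50 replicate 3 and carbendazim EC90 replicate 1. On these arrays 55.6% to 60.6% of all members were well above background, compared with 78.3% to 92.4% on the other 38 arrays. The other transcripts lay between 79.2% and 83.0% on the 4 arrays and between 82.3% and 95.0% on the 38. Without the set, members reached 69.3% to 76.7% and 71.3% to 90.0%.

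**Figure D2:**
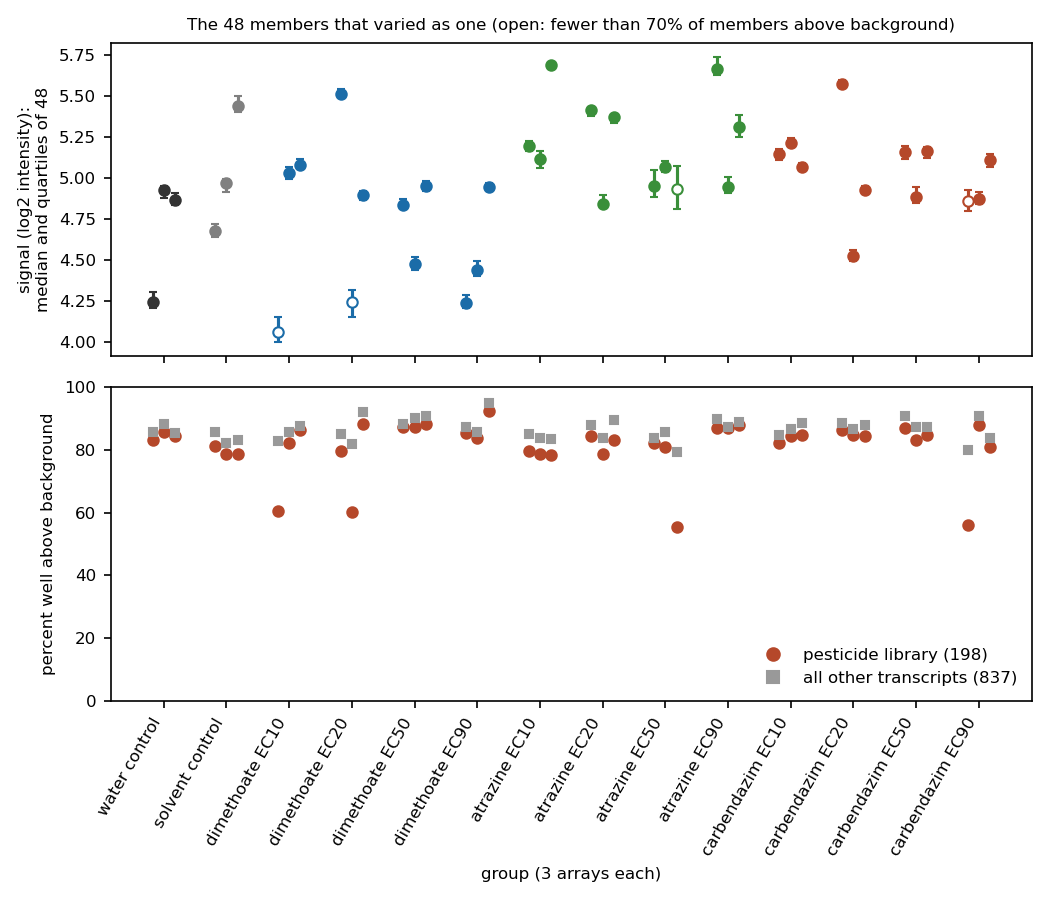
Upper panel, signal (log2 intensity) of the 48 members that varied together, as median and quartiles on each of the 42 arrays by group, with open points for the 4 arrays on which fewer than 70% of all members were well above background. Lower panel, percent of members and of all other transcripts well above background on the same arrays, where the members lie between 55.6% and 60.6% and the other transcripts between 79.2% and 83.0% on those 4 arrays.

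Smaller sets varied as closely. The 198 members fell into 122 sets at this limit, with 93 members in 17 sets of more than 1 member and the rest alone. One set held 6 members (P3_G6, P5_H2, P6_D2, P7_D1, P7_E5 and P9_B11, all SP6 reads) with a median correlation of 0.994 and mean signals between 4.5 and 5.31. A bright set of 5 members between 13.0 and 14.5 joined 4 T7 reads of plates 4 and 5 with P1_D1_SP6 and 3 contigs. Pairs of reads from different wells could hardly be told apart, as P6_H1_SP6 and P7_C2_SP6, whose signals differed by -0.0018 on average (SD 0.018 over 42 arrays).

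Changes of the members against the controls were few, at shares close to those of the whole array. At any dimethoate concentration 8 members (4.04%) were called against the water control, beside 31 other transcripts (3.70%), where 3.77% of all transcripts were called. At any carbendazim concentration 10 members (5.05%) and 31 others (3.70%) were called, with 3.96% over all. Atrazine gave no call in either set (0.0%). At some atrazine concentration 38 members (19.2%) and 173 others (20.7%) had an unadjusted p under 0.05 with limma. For the members the methods' t-test gave 26 before adjustment and 0 after. Over the 12 concentrations and the solvent control, 18 members (9.09%) and 60 others (7.17%) were called at least once, with 7.54% over all.

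The median change of the members stayed close to that of the others. It ran from -0.09 at dimethoate EC90 to 0.22 at atrazine EC90 over the concentrations, and was 0.18 in the solvent against the water control, while the medians of the other transcripts ran from -0.07 to 0.05. The positive medians moved with the set of 48, whose own median change was 0.27 at atrazine EC90, 0.22 at dimethoate EC20 and 0.35 in the solvent control, while the 150 members outside it had medians of 0.13, 0.02 and -0.05. One change of 1 member of this set has an SE of 0.31, so shifts of this size lay close to 1 SE. Because the 48 values rise and fall together, they do not count as separate observations.

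**Figure D3:**
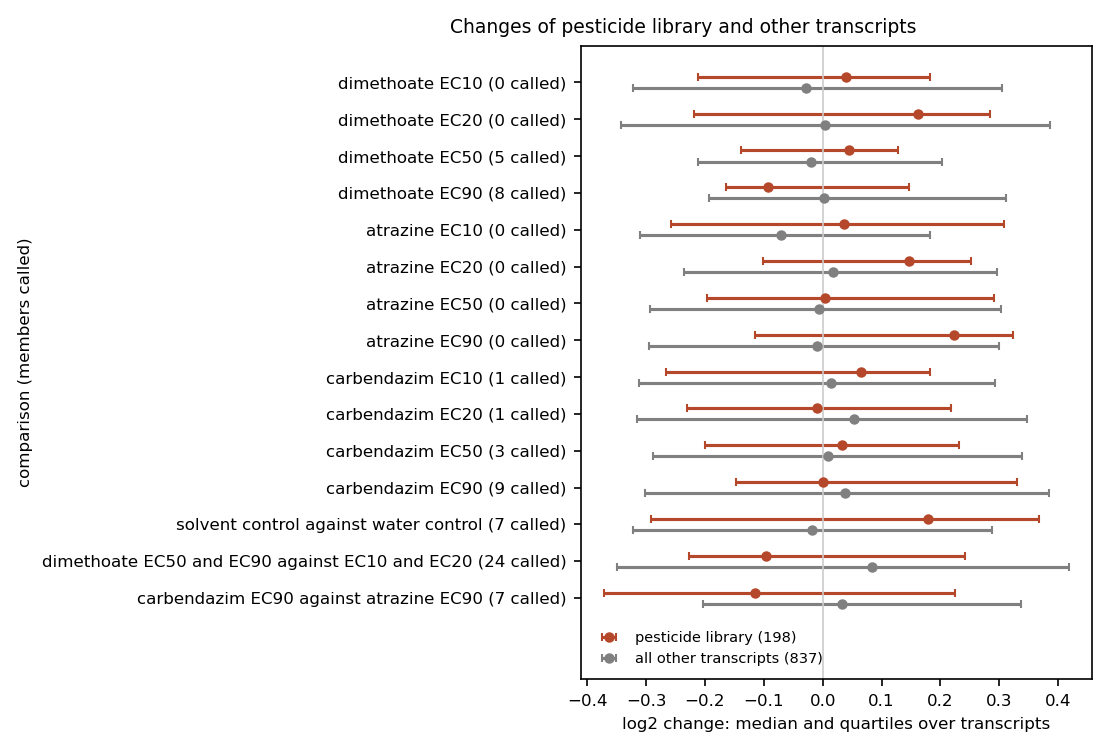
Log2 change (horizontal axis) in the 15 comparisons, as median and quartiles over the 198 pesticide library transcripts and over the 837 others, with the number of members called in brackets. Medians of the members lie between -0.12 and 0.22, and the quartile ranges of members and others overlap in all 15 comparisons.

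With dimethoate, members were called against the water control only at the higher concentrations. At EC10 and EC20 no member was called (0.0% of all transcripts at each). With limma 12 and 15 members (6.06% and 7.58%) had an unadjusted p under 0.05, against 7.53% and 14.5% of the others. The t-test gave 6 and 3 members. At EC50 5 members rose and none fell (1.55% of all transcripts were called), and at EC90 7 rose and 1 fell (3.19%). The 5 that rose at EC50 were P6_F12_SP6, P7_C2_SP6, P6_H1_SP6, P9_F6_SP6 and P10_D7_SP6, and all 5 were also called at EC90. Without water control replicate 3, 4 members in place of 8 were called over the 4 concentrations.

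The largest changes of the library belonged to the first 4 of these. P6_F12_SP6, P7_C2_SP6 and P9_F6_SP6 are matched to mads flc-like protein 2, a name taken from MADS-box regulators of flowering time in plants, and P6_H1_SP6 has no name. They formed 1 set at the correlation limit, together with 3 contigs, and the 4 members had a median SD of 2.09 over the arrays. Against P6_F12_SP6 the correlation was 0.999 for P7_C2_SP6, 0.999 for P6_H1_SP6 and 0.995 for P9_F6_SP6, and next came P10_D7_SP6 with 0.868. These reads may share a target, so they are not 4 separate observations.

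In the water control P6_F12_SP6 had signals of 10.54, 8.07 and 6.41. Dimethoate gave 11.89, 9.02 and 10.44 at EC10 and 8.02, 11.30 and 10.03 at EC20. The higher concentrations gave 14.47, 12.21 and 13.72 (EC50) and 13.62, 12.99 and 13.69 (EC90). All arrays at EC50 and EC90 thus lay above all water control arrays, while those at EC10 and EC20 overlapped them, and the water control itself spread over more than 4 log2 units. The change at EC50 was 5.12 (SE 1.04, limma adjusted p = 0.0049) and at EC90 5.09 (SE 1.04, adjusted p = 0.0017), compared with 2.11 at EC10 (adjusted p = 0.537) and 1.44 at EC20 (adjusted p = 0.526). P7_C2_SP6, P6_H1_SP6 and P9_F6_SP6 rose by 5.01, 4.98 and 4.97 at EC50 and by 4.93, 4.92 and 5.15 at EC90.

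These rises leaned on the water control. Without its replicate 3 the change of P6_F12_SP6 at EC90 was 4.13 (limma adjusted p = 0.042) and the adjusted p at EC50 became 0.130. All arrays of EC50 and EC90 were on slide 2, which held only that replicate of the water control, and with the slide as a block the change at EC50 was 7.05 (adjusted p = 0.0042). These 4 members kept their calls at both concentrations with the slide in the model, but that fit compares the slide 2 arrays with replicate 3 alone. It therefore cannot show whether the rises depend on that replicate.

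The same 4 members were also the ones that rose most in the solvent control. P6_F12_SP6 had signals of 14.28, 12.84 and 13.40 there, all above the water control, a change of 5.17 (SE 1.04, limma adjusted p = 0.0054). P7_C2_SP6, P6_H1_SP6 and P9_F6_SP6 changed by 5.10, 5.08 and 4.97. The 2 controls shared no slide, the call was lost with the slide as a block (7.12, adjusted p = 0.293) and without water control replicate 3 (4.20, adjusted p = 0.104), and slide and solvent cannot be told apart. This comparison shares the water control arrays with those of dimethoate.

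Against the solvent control neither atrazine nor carbendazim gave a call for P6_F12_SP6, although its group means differed. Signals with atrazine were 14.47, 13.30 and 13.91 at EC10, 14.28, 10.01 and 11.35 at EC20, 8.97, 13.14 and 11.76 at EC50, and 13.50, 12.64 and 13.88 at EC90. With carbendazim they were 12.97, 12.40 and 12.38, then 11.98, 9.63 and 11.88, then 13.25, 10.12 and 11.45, and at EC90 15.15, 15.35 and 14.94. The carbendazim EC90 arrays were the highest of all 42 and lay above every solvent control array, with a change of 1.64 (limma adjusted p = 0.441). Its lowest group mean was that of the water control and its range over group means 6.81, and the ranges of P7_C2_SP6, P6_H1_SP6 and P9_F6_SP6 were 6.74, 6.73 and 6.61.

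**Figure D4:**
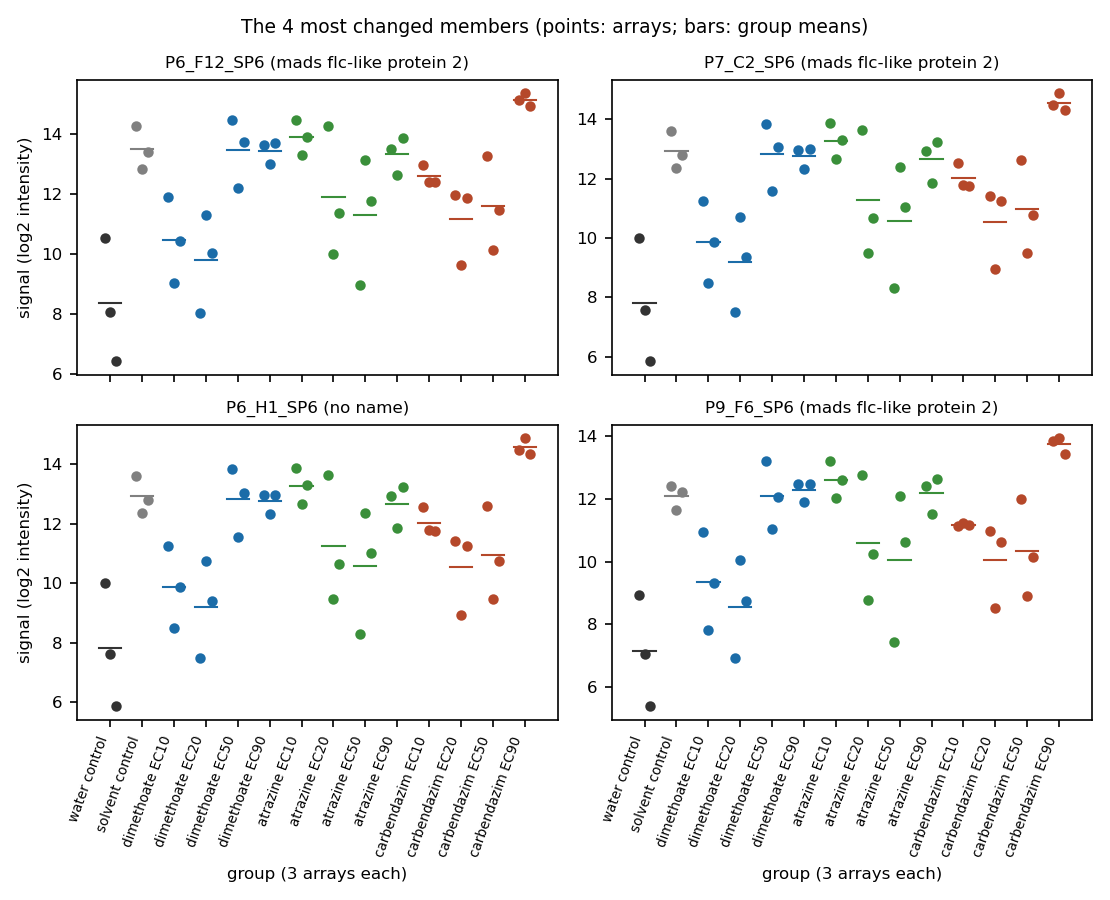
Signal (log2 intensity) of the 4 most changed members on each array by group, with bars at the group means. The water control is lowest and carbendazim EC90 highest in each panel, and the 4 panels repeat one pattern.

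P10_D7_SP6, a dim member without a name, followed them with smaller changes. Its signals were 3.90, 4.49 and 4.07 in the water control, 6.55, 5.09 and 5.67 at dimethoate EC50, and 6.49, 5.94 and 6.02 at EC90. The change was 1.62 at EC50 (limma adjusted p = 0.0446) and 1.99 at EC90 (adjusted p = 0.0028), and with the slide as a block both calls were lost (adjusted p = 0.430 and 0.115). In the solvent control it was 1.72 higher than in the water control (adjusted p = 0.0212, and 0.901 with the slide as a block).

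The other members called at dimethoate EC90 had no rise of that size. P1_A9_T7, which has no name, had signals of 12.07, 11.96 and 11.43 in the water control and 13.84, 12.87 and 13.81 at EC90, without overlap, a change of 1.69 (SE 0.34, limma adjusted p = 0.0013, and 2.08 with an adjusted p of 0.017 with the slide as a block). P2_D8_T7 rose by 0.80 (SE 0.21, adjusted p = 0.0236), from 12.15, 11.98 and 11.68 to 12.79, 12.59 and 12.85, and lost the call with the slide as a block (adjusted p = 0.072). The only member that fell was P3_F6_SP6, matched to mads flc-like protein 2, with signals of 10.93, 11.47 and 11.34 in the water control and 9.12, 9.48 and 9.91 at EC90. Its change was -1.74 (SE 0.45, adjusted p = 0.0173), and the call ended with the slide as a block (adjusted p = 0.190). Members of this name thus rose and fell in the same comparison.

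At the lower concentrations the members of smallest p were close to what single arrays could set. P3_E2_T7 had 11.14, 13.43 and 13.94 at dimethoate EC10 against 13.87, 13.88 and 14.04 in the water control, a change of -1.09 (limma adjusted p = 0.537) that was -0.25 without the deviating scan. P8_C5_SP6, the other member named at EC10 (adjusted p = 0.537), was well above background on 1 of these 6 arrays and is given no fold. At EC20 P1_F11_SP6 changed by 0.84 and P2_D9_T7 by -0.68 (adjusted p = 0.357 for both).

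Dimethoate EC50 and EC90 were also compared directly with EC10 and EC20, 6 arrays against 6. Of the members 24 (12.1%) were called, 17 higher and 7 lower at the higher concentrations, and of the others 155 (18.5%), where 17.3% of all transcripts were called. The 4 members led by P6_F12_SP6 had the largest differences, 3.33 for P6_F12_SP6 (SE 0.73, limma adjusted p = 0.0025), and P10_D7_SP6 was 1.81 higher (adjusted p = 0.0002) and P2_D8_T7 0.78 higher (adjusted p = 0.0010). The lower ones included P6_D6_SP6, named cytochrome oxidase subunit I after the enzyme of the mitochondrial respiratory chain, with -0.88 (SE 0.25, adjusted p = 0.0146), and P6_G1_SP6 with -0.81 (SE 0.22, adjusted p = 0.0101).

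The deviating scan made up 2 of the 6 arrays at the lower concentrations. P6_D6_SP6 had 14.82, 13.30 and 13.41 at EC10 and 13.45, 15.17 and 13.52 at EC20, and the highest of each 3 came from that scan, while the 6 arrays at EC50 and EC90 lay between 12.97 and 13.16. Without the scan its difference was -0.36 (limma adjusted p = 0.257) and that of P6_G1_SP6 -0.39 (adjusted p = 0.157). Then 10 members were called, 6 of them among the 24, and P6_F12_SP6 (4.07, adjusted p = 0.0013), P10_D7_SP6 (2.13) and P2_D8_T7 (0.56) kept their calls. No array at EC50 or EC90 shared a slide with one at EC10 or EC20, and slide and concentration cannot be told apart. With the slide as a block no member was called, with 13 at an unadjusted p under 0.05 with limma and 5 called by the adjusted t-test without that block.

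For atrazine the members nearest to a call are given by value alone. P7_C4_SP6 was well above background on all 3 arrays at EC90 and on none of the solvent control, with mean signals of 3.94 and 2.72 (limma adjusted p = 0.0772), and P5_D6_SP6, named larval visceral protein d, was 0.82 higher (adjusted p = 0.201). At EC50 P7_B11_SP6 was at least 1.51-fold higher (adjusted p = 0.456). It was not well above background on any solvent control array, and such bounds set the mean of the brighter group against the lowest signal well above background on each array of the dimmer one. P8_C5_SP6 (adjusted p = 0.456) was not well above background on any array of either group. At EC10 and EC20 P1_F11_SP6 changed by -0.90 (adjusted p = 0.885) and -1.09 (adjusted p = 0.315), and P5_A2_T7 changed by -0.92 and -0.83 (adjusted p = 0.885 and 0.795). At an unadjusted p under 0.05 limma had 7, 10, 21 and 17 members from EC10 to EC90, and the t-test 12, 6, 6 and 13. The limma counts were 3.54%, 5.05%, 10.6% and 8.59% of the members, close to 2.87%, 5.26%, 9.92% and 8.84% of the others. Leaving out the deviating dimethoate scan, which enters atrazine only through the shared spread, gave 9 called members, and leaving out solvent control replicate 3 or atrazine EC50 replicate 2 gave 3.

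With carbendazim 9 members were called at the highest concentration, EC90, and 3 at EC50, against 3.77% and 0.386% of all transcripts. At EC20 and at EC10 there was 1 each, against 0.0966% and 0.193%. Over the 4 concentrations 5 members in place of 10 were called without solvent control replicate 2. The single member at EC10 and EC20 was P5_A2_T7, without a name. It had signals of 6.65, 6.19 and 6.18 in the solvent control, 4.45, 3.93 and 4.65 at EC10, 4.79, 4.47 and 4.87 at EC20, 5.54, 5.61 and 5.39 at EC50, and 5.75, 5.17 and 5.11 at EC90. All 12 carbendazim arrays lay below the solvent control, and the fall was largest at the lowest concentration. Its change was -2.0 at EC10 (SE 0.30, limma adjusted p = 0.0002) and -1.63 at EC20 (adjusted p = 0.0059), against -0.82 at EC50 (adjusted p = 0.320) and -0.99 at EC90 (adjusted p = 0.053).

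The 6 arrays of carbendazim EC10 and EC20 were all on slide 8, which held no solvent control. With the slide as a block the changes of P5_A2_T7 were -1.28 and -0.91 (limma adjusted p = 0.999 for both), and slide and carbendazim cannot be told apart at these concentrations. In the water control its signals were 5.05, 5.07 and 5.67, so that the solvent control, against which it fell, was 1.08 above the water control (adjusted p = 0.054).

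Stathmin was lower at the higher carbendazim concentrations than in the solvent control. P4_D3_SP6 is named stathmin 1, a protein that binds tubulin and destabilises microtubules, and its signals were 7.26, 7.22 and 8.05 in the solvent control. They were 7.19, 7.25 and 6.84 at EC10, 7.13, 7.05 and 7.09 at EC20, 6.62, 6.37 and 6.22 at EC50, and 6.09, 6.07 and 6.46 at EC90. EC20, EC50 and EC90 lay below all solvent control arrays, EC10 overlapped them, and EC50 and EC90 overlapped each other. The changes were -0.41, -0.42, -1.10 (SE 0.24, limma adjusted p = 0.0247) and -1.30 (SE 0.24, adjusted p = 0.0010), and the first pair was not called. The EC10 and EC20 arrays were on slide 8 and those of EC50 and EC90 on slides 5 and 7. Between these pairs slide and concentration cannot be told apart.

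P4_H9_SP6, matched to mads flc-like protein 2, gave the same values as P4_D3_SP6 from another well of that plate. The correlation was 0.999 and the mean difference -0.0048 (SD 0.025 over 42 arrays), so that the 2 names stand for 1 profile. Its changes at EC50 and EC90 were -1.11 and -1.32. Both members lost their calls with the slide as a block, P4_D3_SP6 with -0.85 at EC50 (limma adjusted p = 0.958) and -0.98 at EC90 (adjusted p = 0.292).

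At EC90 7 members rose. P9_A11_SP6, matched to mads flc-like protein 2, had 8.17, 7.70 and 8.45 in the solvent control and 9.80, 9.59 and 9.40 at EC90, a change of 1.49 (SE 0.33, limma adjusted p = 0.0074). P2_D8_T7 rose from 11.98, 11.49 and 12.14 to 12.87, 12.93 and 12.99, by 1.06 (adjusted p = 0.0029), and was thus called at EC90 of dimethoate and of carbendazim, which were tested against different controls. P2_H2_SP6, named dimethyladenosine transferase after the enzymes that methylate adenosines of ribosomal RNA, rose by 1.09 (adjusted p = 0.0276), from 11.54, 11.28 and 12.00 to 12.85, 12.92 and 12.33. P5_E4_SP6, named short chain dehydrogenase after a family of oxidoreductases, rose by 0.90 (adjusted p = 0.0434), from 6.97, 7.15 and 7.08 to 7.82, 8.11 and 7.99. None of these groups overlapped.

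The remaining 3 rises at carbendazim EC90 were of dim members that were well above background on no solvent control array. P8_C5_SP6 was at least 1.27-fold higher (limma adjusted p = 0.0004, well above background on 1 of 3 arrays), P3_C5_SP6 at least 1.28-fold (adjusted p = 0.0234, 2 arrays) and P9_A6_SP6 at least 1.23-fold (adjusted p = 0.0495, 2 arrays). With the normexp background correction P3_C5_SP6 and P9_A6_SP6 changed sign, to -0.13 and -0.0036. At EC50 P8_C5_SP6 was the only member that rose (adjusted p = 0.0463, well above background on 3 arrays against 0, with means of 3.80 and 2.27), and its change with normexp was -0.10. With the slide as a block no member was called for carbendazim at any concentration, with 0, 0, 11 and 16 members at an unadjusted p under 0.05 with limma from EC10 to EC90 and 1 called by the adjusted t-test without that block.

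**Figure D5:**
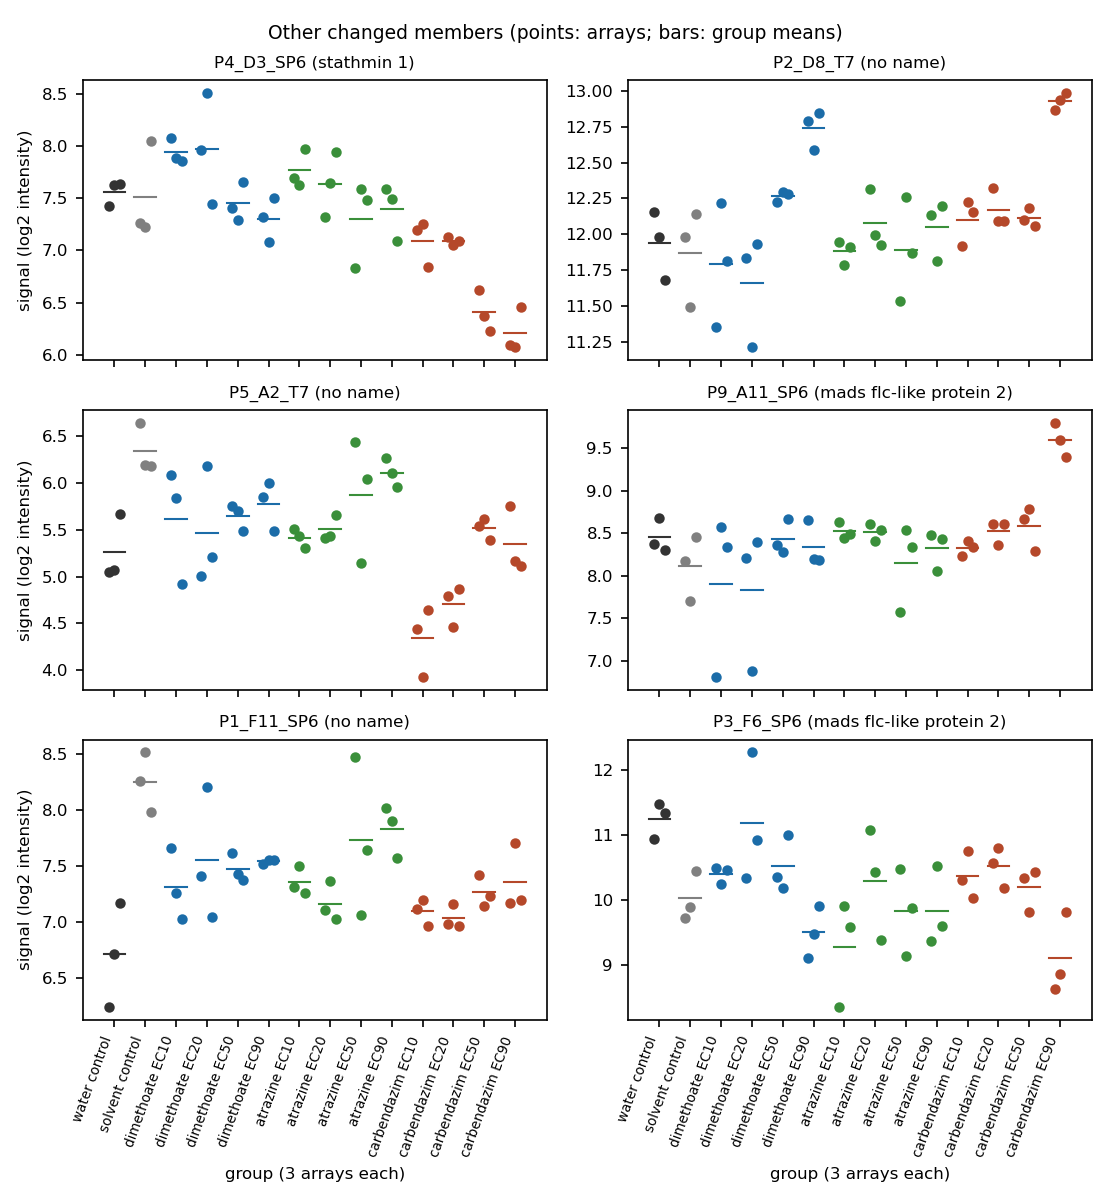
Signal (log2 intensity) of 6 other changed members on each array by group, with bars at the group means. P4_D3_SP6 is lowest at carbendazim EC50 and EC90, P5_A2_T7 at carbendazim EC10 and EC20, and P2_D8_T7 is highest at dimethoate and carbendazim EC90.

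In the solvent control 6 members were higher and 1 lower than in the water control (1.84% of all transcripts were called). Besides the 4 members led by P6_F12_SP6 and P10_D7_SP6 the sixth was P1_F11_SP6, with 6.24, 6.72 and 7.17 in the water control and 8.26, 8.51 and 7.98 in the solvent control. Its change was 1.54 (SE 0.27, limma adjusted p = 0.0032), and the call was lost with the slide as a block (1.86, adjusted p = 0.293). At all 4 carbendazim concentrations it was lower than in the solvent control, by changes of -1.16, -1.22, -0.99 and -0.89 (adjusted p = 0.062, 0.050, 0.150 and 0.056), without a call. The member that was lower, P8_C5_SP6 (adjusted p = 0.0407), was well above background on 1 of the 6 arrays and had a change of 0.03 with normexp. Without water control replicate 3 only 1 member was called in this comparison.

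Carbendazim EC90 and atrazine EC90 share the solvent control and were also compared directly. Of the members 7 were called, 4 higher and 3 lower with carbendazim, where 2.8% of all transcripts were called. Leaving out single arrays gave 2 to 6, with 2 when atrazine EC90 replicate 2 was left out. P9_A11_SP6 was 1.27 higher (SE 0.33, limma adjusted p = 0.0268), P2_H2_SP6 1.25 (adjusted p = 0.0154), P5_E4_SP6 0.94 (adjusted p = 0.0375) and P2_D8_T7 0.88 (adjusted p = 0.0176). P2_H2_SP6 had 11.48, 11.10 and 11.78 and P5_E4_SP6 7.50, 6.41 and 7.18 with atrazine EC90, all below the carbendazim arrays. P4_H9_SP6 and P4_D3_SP6 were lower with carbendazim (-1.19 and -1.18, adjusted p = 0.0040 for both), and so was the dim P7_C4_SP6 (-0.95, adjusted p = 0.0416). No carbendazim EC90 array shared a slide with atrazine EC90, and with the slide as a block no member was called (6 at an unadjusted p under 0.05 with limma and 0 called by the adjusted t-test without that block).

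Protein names were at hand for 39 members (19.7%) and 186 of the others (22.2%). The names come from the study's table of transcripts that it had found changed on these arrays, so they are not independent of the changes. The most frequent was mads flc-like protein 2, and all 14 transcripts with that name in the study's table were members. Transcripts outside that table have no name here, so others on the array may carry it. They had mean signals between 2.41 and 14.74 and 8 of them were called in at least 1 of the 15 comparisons, where 21.7% of all transcripts were. Their 91 pairs had a median correlation of 0.016 (from -0.64 to 0.999), with 3 pairs above the limit, and they fell into 12 sets. At carbendazim EC90 2 of the 14 rose and 1 fell, with a median change of 0.09 against 0.03 over all transcripts. P8_D7_SP6 of the same name had an SD of only 0.18 over all arrays at a mean signal of 14.51.

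Muscle and actin cytoskeleton transcripts were the largest group with a common function. The 10 members among them were well above background on every array, with mean signals from 6.31 to 15.93. They were actins, myosin light chain, tropomyosins and calponin-like proteins, parts or regulators of the contractile filaments, and sarcoplasmic calcium-binding proteins. None was called in any comparison. Against the solvent control their median change from EC10 to EC90 was 0.35, 0.37, 0.37 and 0.26 with carbendazim. With atrazine it was -0.13, 0.06, 0.46 and 0.24. The medians over all transcripts were 0.03 at carbendazim EC90 and 0.00 at atrazine EC50. In the solvent control itself their median was -0.28 against the water control, and 0.01 over all transcripts. At atrazine EC50 2 of the 10 had an unadjusted p under 0.05 with limma. Calponin-like P6_A6_SP6, an actin-binding protein, changed by 0.58 there (limma adjusted p = 0.459). Between the higher and lower dimethoate concentrations the actin P8_A5_SP6 differed by 0.55 (adjusted p = 0.0623) and beta-actin P2_A9_SP6 by -0.61 (adjusted p = 0.0742), and without the deviating scan by 0.15 and -0.01.

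The other named members were few. Of 6 for translation only the dimethyladenosine transferase was called, and ribosomal protein L10a (P6_G11_SP6) differed by -0.51 between the higher and lower dimethoate concentrations (limma adjusted p = 0.070, and -0.03 without the deviating scan). Of 4 metabolic members only the short chain dehydrogenase was called, and the glycolytic enzyme glyceraldehyde-3-phosphate dehydrogenase (P1_G10_SP6) changed by 0.47 at carbendazim EC10 (adjusted p = 0.459). Of 3 for microtubules and intermediate filaments only stathmin was called. Its calls were not confined to carbendazim. It was also lower at the higher than at the lower dimethoate concentrations, with a called change of -0.58 that lost the call with the slide as a block. The intermediate filament protein P4_F8_SP6 was well above background on 3 water control and 0 solvent control arrays (adjusted p = 0.154), and tektin 2 (P6_F2_SP6), a protein of ciliary microtubules, was well above background on 5 of 42 arrays.

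One unnamed member varied between replicates more than between groups. P3_H7_T7 ranged from 2.20 to 12.65 over the arrays (SD 2.62), with 2.20, 5.90 and 11.21 at carbendazim EC50 and 10.97, 9.94 and 3.30 at dimethoate EC10. In the solvent control it had 10.56, 10.70 and 10.24. Signals under 8 occurred on 12 arrays of 9 groups, and no comparison was called.

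In at least 1 of the 15 comparisons 33 members (16.7%) and 192 of the other transcripts (22.9%) were called, with 21.7% over all. Of the members 165 members were never called, 19 were called once, 5 in 2 comparisons and 9 in 4. By primer 28 of the 174 SP6 members (16.1%) and 5 of the 24 T7 members (20.8%) were called at least once, both under the share over all transcripts.
Of the 65 called changes of members over all comparisons, 21 kept an adjusted p under 0.05 without each array in turn. Against a control these were P9_F6_SP6, P6_F12_SP6, P10_D7_SP6 and P1_A9_T7 at dimethoate EC90, P5_A2_T7 at carbendazim EC10, P8_C5_SP6, P4_H9_SP6, P4_D3_SP6 and P2_D8_T7 at carbendazim EC90, and P1_F11_SP6 in the solvent control. The other 44 lost the call without at least 1 array, and none changed direction.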

How the data were processed

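Total RNA of 42 vessels was hybridised to single-colour Agilent arrays, 3 per group. Per the file headers, the scanner software had subtracted the background from the deposited intensity values and removed trends across each array, with no normalization between arrays. The submitters' processing notes name it as Agilent Feature Extraction 10.5.1.1. The deposited table of values repeated these signals.

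The spots of each transcript, without those marked as outliers, were averaged and converted to log2, and each array was centred on the median array by its median difference (-1.29 to 0.50). One limma model (3.58.1, R 4.3.3) with 14 group means had 28 residual degrees of freedom, 3.94 prior ones, and a residual SD with a median of 0.413. P-values were adjusted by Benjamini-Hochberg over 1035 transcripts for each comparison. The tools used besides were pandas 2.3.3, numpy 2.4.6 and scipy 1.17.1 in Python 3.11.15, matplotlib 3.10.9 for plots, and the R package data.table at version 1.17.8 to read files. The fit was tested on simulated data. The number of arrays limits the precision, and p-values measure the spread between vessels, 1 array each.

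Members and lists were chosen with earlier results of these data known. Members are named, for each comparison, as the 3 largest rises and the 3 largest falls among called members whose arrays did not overlap, or as the 2 of smallest p where none was called. Further, up to 4 with a protein name per list, the 5 of highest signal, the 5 of largest range over groups and the 3 most like the most changed member are named. Other called members were named after their values were seen. Protein names were matched through the study's supplementary table, for 225 of 225 entries. Its cluster numbers are not on the array, so each entry was given to the sequence with the same log2 ratios against the controls. Matches differed by at most 0.00131 log2, and the sequence next in order by at least 0.0371. The names thus rest on measured values. The probe sequences were not analysed here.

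Alternatives were a shift to the 75th percentile, quantile normalization, normexp background correction (offset 50), log2 averages of all spots, a filter on dim transcripts (917 left, 173 of them members), slide, day of scanning and replicate number as blocks, slide as a random block, the groups compared alone, the methods' t-test with equal variances, and removal of single arrays or of the deviating scan. Removal of the 4 arrays on which the set of 48 was mostly not detected was chosen after seeing the data. Replicate numbers did not pair the arrays.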

Additional observations from a re-analysis of the deposited data

Results flagged for a closer look

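In the direct test of dimethoate EC50 and EC90 against EC10 and EC20 the difference itself was significant with limma for 5 members named here. P6_F12_SP6 differed by 3.33, P7_C2_SP6 by 3.26 and P6_H1_SP6 by 3.24, and these 3 share one profile. P6_D6_SP6 differed by -0.88 and P6_G1_SP6 by -0.81, and both lost significance without the deviating scan.

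The direct test of carbendazim EC90 against atrazine EC90 was significant for 6 further members. P9_A11_SP6 was higher with carbendazim by 1.27, P2_H2_SP6 by 1.25 and P5_E4_SP6 by 0.94. The values were -1.19 for P4_H9_SP6 and -1.18 for P4_D3_SP6, which share one profile, and -0.95 for P7_C4_SP6, which was well above background on 1 carbendazim array and 3 atrazine arrays. None of these 6 was called with the slide as a block.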

How the results depend on the processing

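Counts of called members were 8 for dimethoate, 0 for atrazine, 10 for carbendazim, 7 for solvent against water control, 24 for dimethoate EC50 and EC90 against EC10 and EC20 and 7 for carbendazim EC90 against atrazine EC90. With the slide as a block they were 5, 0, 0, 0, 0 and 0, and of the 65 called changes 9 kept their call. With the day of scanning as a block carbendazim had 6, the dimethoate contrast 41 and carbendazim against atrazine 2. The adjusted t-test gave 0, 0, 1, 0, 5 and 0 and the unadjusted one 44, 26, 61, 33, 25 and 27. Groups compared alone gave 5 for dimethoate, 5 for the dimethoate contrast and 1 for carbendazim against atrazine, with fewer arrays to estimate the spread. The shift to the 75th percentile gave 3 for the last.

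Without the deviating scan the counts were 10, 9, 27, 13, 10 and 11, and they held all 8, 10, 7 and 7 called members of dimethoate, carbendazim, the solvent control and the last comparison, but 6 of the 24. Without the 4 arrays with few detected members they were 11, 11, 30, 14, 10 and 9. Without single arrays dimethoate had 4 to 8, atrazine 0 to 3, carbendazim 5 to 11, the solvent control 1 to 6, the dimethoate contrast 10 to 41 and carbendazim against atrazine 2 to 6. The dimethoate contrast had 10 without EC10 replicate 1 or EC20 replicate 2 and 41 without EC20 replicate 3.

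Normexp moved the difference in median signal from -2.71 to -1.75 and the dimethoate contrast to 46 called members, 16 of them shared. It reversed changes of dim members, whose direction is therefore not settled. These were P8_C5_SP6 at dimethoate EC10 (0.25), carbendazim EC50 (-0.10), in the solvent control (0.0283) and in the dimethoate contrast (-0.19), P7_C4_SP6 (-0.0732) and P6_F2_SP6 (-0.0839) at atrazine EC90, P3_C5_SP6 (-0.13) and P9_A6_SP6 (-0.0036) at carbendazim EC90, P4_F8_SP6 in the solvent control (0.0725), P5_C6_SP6 at carbendazim EC20 (-0.14) and P4_B3_SP6 in the dimethoate contrast (-0.13). The cause of these shifts was not tested.

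With the replicate number as a block the counts were 8, 0, 10, 7, 24 and 7, and 1 of the 65 called changes was lost. Deviations of arrays with the same number had a median correlation of 0.0099 (from -0.79 to 0.63), with 93 of 273 pairs above 0.1, so the numbers did not pair the arrays.

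With 3 arrays per group, members not well above background have only bounds, and saturated members cannot show rises in full.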
